A study of Sus scrofa with 20 samples.

Results

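Collagen genes were described across 4 skin sites of 5 wild-type female Yorkshire pigs. From each pig 1 biopsy of 4 mm was taken from the foot sole (labelled volar and called sole here), the foot's upper side (labelled dorsal and called upper foot here), the flank and the snout, so that all groups share breed, sex and genotype and differ by site, with no treatment. The pigs were 4, 5, 6, 7 and 8 months old and are named by age. Messenger RNA of the 20 whole biopsies was sequenced in bulk, with 34077821 to 66906420 assigned counts a library. The members are every gene identifier of the count table whose symbol reads COL, number, A, number: 38 of 19280 identifiers. They comprise 11 fibrillar, 8 network-forming, 7 FACIT, 5 beaded-filament and 7 other collagen genes. All but COL10A1, which had no count in any library, passed the filter on low counts, so 37 were tested. COL4A1, COL7A1, COL9A2, COL19A1, COL20A1 and COL26A1 were not analysed here.

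Collagens are secreted proteins made of 3 chains wound into a triple helix. Fibrillar collagens, of which types I and III form the bulk of the dermis, assemble into tension-bearing fibrils, FACIT collagens decorate the surface of those fibrils, beaded-filament collagen VI forms a fine microfibrillar net around cells, and network-forming collagen IV makes the sheet of basement membranes. Several other collagens span cell membranes, among them collagen XVII, which anchors basal keratinocytes to the basement membrane. In skin, fibroblasts make most of the dermal collagens and keratinocytes contribute to those of the epidermal junction.

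The libraries fall into 2 sets by the library numbers of the labels: a first set of 12 libraries (pigs of 4, 7 and 8 months) and a second set of 8 libraries (pigs of 5 and 6 months). The site labels of the second set go against its expression. Each of its 8 libraries correlated best with another site of the first set than its label names (Pearson r 0.78 to 0.852 over 2000 genes, against 0.0507 to 0.729 for the next best site), and the assignment was the same for 8 of 8 libraries with collagen genes left out. By that match, libraries labelled flank were read as sole, those labelled volar as snout, those labelled dorsal as flank and those labelled snout as upper foot. EN1, a homeobox gene of ventral limb skin, stood at 9.03 to 19.96 CPM in the 5 sole libraries so read and at 0.278 to 3.37 CPM in the others, and ALX1, a facial homeobox gene, at 18.2 to 19.4 CPM in the 5 snout libraries and at most at 0.425 CPM elsewhere. These names are inferred from expression. Tests of the first set rest on labels alone and come first below. Second-set values carry the read name, tests over all 20 libraries use it, and results under the deposited labels close the account. Levels are CPM, counts scaled by sequencing depth per library, with TMM-adjusted library sizes. They are not divided by gene length, so they are compared between sites and not between genes.

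Collagen transcripts took the largest share of counts in flank skin and the smallest in the sole. Of all counts in the first set, the 38 genes took 3.46%, 1.51% and 2.11% in the sole of the 4-, 7- and 8-month pig, 15.8%, 12.6% and 17.4% in the flank, 10.8%, 6.49% and 4.03% in the upper foot, and 5.02%, 3.82% and 3.03% in the snout. The sole was lowest and the flank highest in each of the 3 pigs. In the second set, listed for the 5-month and then the 6-month pig, the shares were 0.734% and 0.642% in the sole, 23.4% and 13.01% in the flank, 10.5% and 6.84% in the upper foot, and 6.04% and 3.42% in the snout. The order of the 4 sites was the same in both pigs. Transcripts of COL1A1, COL1A2 and COL3A1 together held 89.7% to 92.7% of collagen counts in the 5 flank libraries and 49.8% to 77.1% in the 5 sole libraries. Other cell markers also differed in the sole. The 3 keratinocyte genes with a row (KRT1, KRT10, KRT15) summed to 236407 to 559847 CPM there and 8302 to 22714 CPM elsewhere. KRT1 and KRT10 made up that rise. KRT15 went the other way, at 0.419 to 13.9 CPM in the sole and 119 to 379 CPM elsewhere. The 6 fibroblast genes that are no collagens (of 7 listed) summed to 1409 to 3098 CPM in the sole and 5768 to 11844 CPM in the flank. Their sums were 3595 to 6243 CPM in the upper foot and 3293 to 5743 CPM in the snout. In bulk biopsies fewer fibroblasts and less collagen RNA per fibroblast cannot be told apart. Shares of all counts also depend on the keratin counts, whose part was not tested.

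Site differences were tested with edgeR's quasi-likelihood F test over all genes, calling an adjusted p under 0.05. In the first set 22 of 37 collagen genes differed between sites, beside 30.4% of all genes tested. The count was 4 without the 8-month pig, 3 without the 7-month pig and 18 without the 4-month pig. With the pig as block, which compares sites within pigs, it was 30, with 10 genes gained and 2 lost (COL6A5 and COL22A1). All-gene shares are given, here and below, only for edgeR without the block and with every library kept. Counts under other settings therefore cannot be set against all genes. For the 16 genes given library by library below, 33 first-set differences between 2 sites were called, of which 25 were lost without the 8-month pig, 23 without the 7-month pig, 7 without the 4-month pig and 9 in fits of the 2 sites alone. The second set, tested alone, gave 26 of 37 (44.5% of all genes). Of the collagen genes 18 were called in both sets, an overlap whose all-gene share is not given here. Over all 20 libraries 33 of 37 were called (60.3% of all genes). The 4 that were not are COL8A1, COL4A2, COL27A1 and COL15A1, named after their values were seen, and COL8A1 passed with the pig as block (adjusted p = 0.0314). COL27A1, which encodes a fibrillar collagen of cartilage, ranged from 8.83 to 18.8 CPM in the 20 libraries. The site-by-set interaction, which tests whether site differences differ between the sets as read, called 0 collagen genes (0.0318% of all genes). Its unadjusted p was under 0.05 for 10 of 37 collagen genes, beside 1801 of all 15735 genes. DESeq2 called 5 (COL12A1, COL11A1, COL6A5, COL3A1 and COL2A1). Second-set sites were named by their match to the first set, which itself favours few interaction calls.

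**Figure D1:**
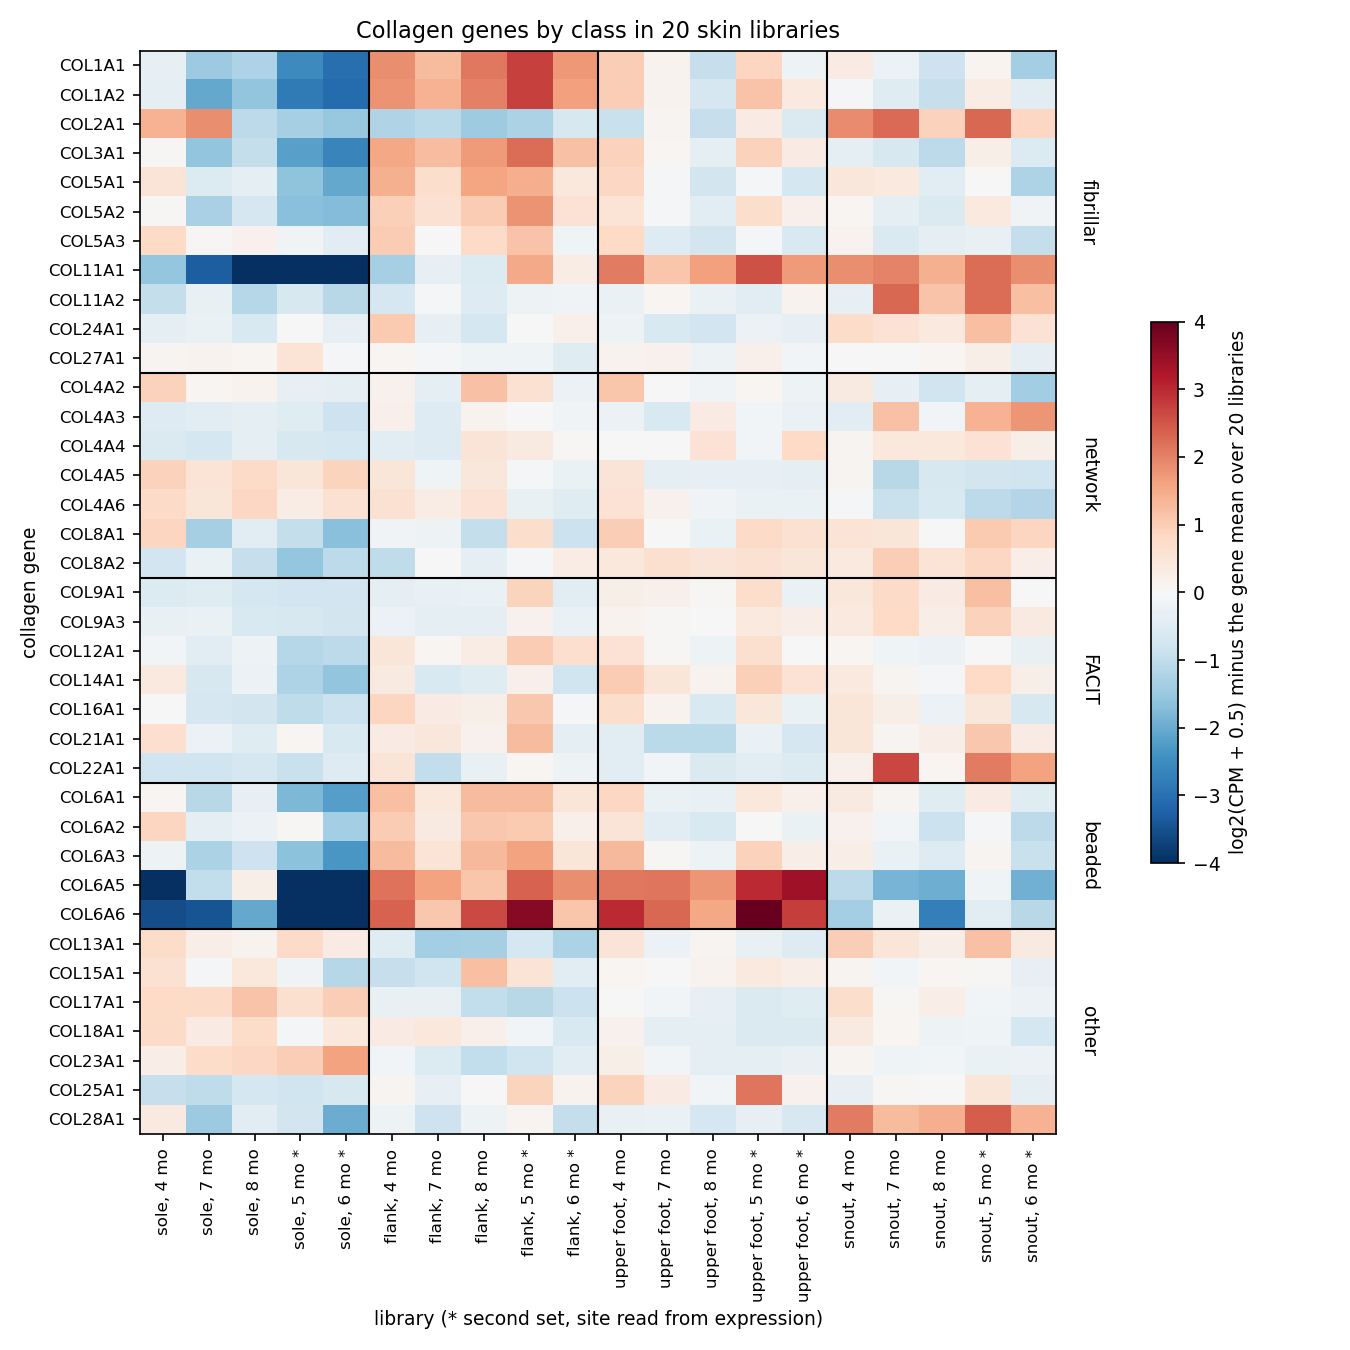
Level of the 37 tested collagen genes (rows, by class) in the 20 libraries (columns, by site and age in months), as log2(CPM + 0.5) minus the gene's mean over all libraries; colours stop at 4 units above or below the mean, and asterisks mark second-set libraries, whose site was read from expression. The fibrillar and beaded genes COL1A1, COL1A2, COL3A1, COL6A1 and COL6A3 are red in the flank columns and mostly blue in the sole columns, COL6A5 and COL6A6 are red in flank and upper foot, and COL28A1 is red in the snout.

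Between the sole and the flank of the first set, 10 of 37 collagen genes were lower in the sole (16% of all genes were) and 4 were higher (16.9% of all genes). Over all libraries 18 were lower (29.1% of all genes) and 7 higher (25.8%). The median log2 fold change of the 37 genes was -0.65 in the first set and -0.87 over all libraries, beside -0.05 and -0.04 for all genes tested. By class, 6 of 11 fibrillar and 3 of 5 beaded genes were lower in the sole in the first set. Of the 7 others 3 were higher and 1 lower. No network or FACIT gene was called there, but the FACIT genes COL16A1, COL12A1 and COL9A1 passed as lower with the pig as block (adjusted p = 0.00222, 0.0157 and 0.0418). Over all libraries 6 fibrillar, 5 beaded, 4 FACIT, 2 network and 1 of the other genes were lower. Higher were 1 fibrillar, 2 network and 4 of the other genes. The first-set calls of this pair numbered 15 without the 4-month pig, 6 without the 8-month pig and 4 without the 7-month pig. Of the 14 genes called, 13 had the same sign in the second set as read, with COL2A1 the exception, beside 97.6% of all genes called, a share that the matching of site names itself favours.

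COL1A1 encodes the alpha 1 chain of collagen I, the main fibril of dermis. Its level in the first set, listed for the 4-, 7- and 8-month pig as in all following sentences, was 4695, 2131 and 2518 CPM in the sole, 21325.5, 14169 and 25364 CPM in the flank, 11621.5, 6464 and 3105 CPM in the upper foot and 7321, 5006 and 3287 CPM in the snout. Each flank library stood above every library of the other sites, and the sole was lowest in each pig. In the second set, listed for the 5- and 6-month pig, it was 997 and 727 CPM in the sole, 39451 and 19699.9 CPM in the flank, 10721 and 5116.5 CPM in the upper foot and 6323 and 2308 CPM in the snout. The flank was again highest and the sole lowest in both pigs. The log2 fold change of sole minus flank was -2.70 ± 0.51 (adjusted p = 0.00263) in the first set and -3.53 ± 0.52 (adjusted p = 2.26e-05) over all libraries, where ± is the standard error. Snout minus flank was -1.97 ± 0.50 (adjusted p = 0.026) in the first set and -2.34 ± 0.49 (adjusted p = 0.00171) over all libraries, where the call was lost, at -2.33, without the libraries with skeletal muscle transcripts that are described with the snout. The first-set call of snout minus flank was lost without the 7-month or the 8-month pig.

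COL1A2, the gene of the alpha 2 chain of collagen I, had 10091, 3186 and 4469 CPM in the sole, 46086, 34590.1 and 53349 CPM in the flank, 26133, 14744.5 and 8412 CPM in the upper foot and 12852, 9475 and 7074 CPM in the snout in the first set. Again the 3 flank libraries exceeded all others. The second set held 1882 and 1570.5 CPM in the sole, 87423.5 and 41245 CPM in the flank, 29032 and 17279 CPM in the upper foot and 16177 and 9611 CPM in the snout. The 2 sole libraries of that set were the lowest of all 20. Sole minus flank was -2.91 ± 0.51 (adjusted p = 0.00172) in the first set and -3.62 ± 0.51 (adjusted p = 1.26e-05) over all libraries. Sole minus upper foot was -1.45 ± 0.48 (adjusted p = 0.0515) in the first set and passed with the pig as block (adjusted p = 0.016).

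COL3A1 encodes the chain of collagen III, which mixes with collagen I in dermal fibrils. It had 20952, 6802 and 10306 CPM in the sole, 59368.5, 47759 and 65200.5 CPM in the flank, 38090.3, 21249.7 and 15245 CPM in the upper foot and 15269, 12956 and 9779.5 CPM in the snout in the first set, with the flank above all other libraries and sole and snout overlapping. The second set held 4430.0 and 3197 CPM in the sole, 94048 and 44912 CPM in the flank, 38062 and 25290.2 CPM in the upper foot and 23589.7 and 13685 CPM in the snout. The sole stood below every other site there. Sole minus flank was -2.17 ± 0.44 (adjusted p = 0.00382) in the first set and -2.77 ± 0.46 (adjusted p = 6.34e-05) over all libraries. The first-set call was lost without the 7-month or the 8-month pig. Sole minus snout was 0.01 ± 0.42 (adjusted p = 0.993) in the first set, so that no difference from the snout was detected at n = 3 pigs per site (edgeR). Sole minus upper foot, -0.94 ± 0.43 (adjusted p = 0.134), passed with the pig as block (adjusted p = 0.0491).

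**Figure D2:**
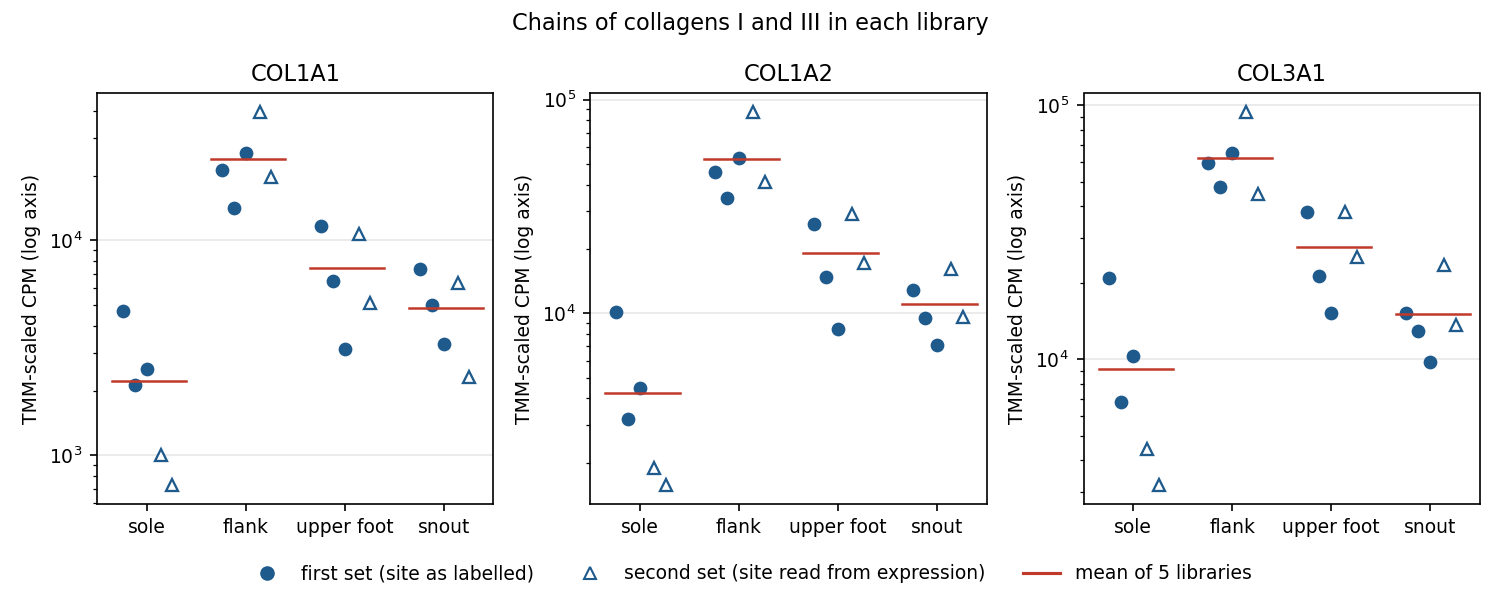
Level of COL1A1, COL1A2 and COL3A1 in each library by site, in TMM-scaled CPM on a log axis; filled circles are first-set libraries under their label, open triangles second-set libraries under the site read from expression, and red lines the mean of 5 libraries. In each panel the 5 flank libraries lie above the sole libraries, which for COL1A1 run from 727 to 4695 CPM against 14169 to 39451 CPM in the flank.

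The chains of collagen V, which set fibril diameter by co-assembling with collagen I, differed less. COL5A1 ranged from 198 to 409 CPM in the sole and from 464 to 854 CPM in the flank of the first set, which did not overlap, with a log2 fold change of -1.33 ± 0.43 (adjusted p = 0.0359). COL5A2 gave -1.40 ± 0.35 (adjusted p = 0.0112). The any-site test of COL5A1 passed in the first set only with the pig as block (adjusted p = 0.0258). Because both COL5A2 and COL1A1 were lower in the sole, their ratio within a library was compared, a measure free of scaling between libraries. COL5A2 over COL1A1 was on average 0.215 in the sole, 0.0906 in the flank, 0.161 in the upper foot and 0.164 in the snout of the first set. All flank libraries had lower ratios than all libraries of the other sites. Permuting site names within pigs gave an exact p of 0.00694 for the sum of squares between sites, which has no direction, adjusted p = 0.0313 over 6 ratios, with n = 3 pigs. In the second set the ratios were 0.354, 0.0797, 0.182 and 0.281 in the same order, with an exact p of 0.0417, the smallest that 24 arrangements allow, and adjusted p = 0.125.

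Of the other ratios, COL11A1 over COL5A1 differed between first-set sites (exact p = 0.0139, adjusted p = 0.0313), as did COL12A1 over COL14A1 (exact p = 0.0156, adjusted p = 0.0313). COL11A1 over COL5A1 averaged 0.0113 in the sole, 0.0248 in the flank, 0.303 in the upper foot and 0.304 in the snout. COL12A1 and COL14A1 encode 2 FACIT collagens of the dermis, and their ratio averaged 0.696 in the sole, 1.07 in the flank, 0.558 in the upper foot and 0.627 in the snout. COL1A2 over COL1A1 (adjusted p = 0.15), COL3A1 over COL1A1 (adjusted p = 0.148) and COL6A5 over COL6A1 (adjusted p = 0.203) did not pass in these exact tests. No ratio passed in the second set, where the exact tests of 2 pigs gave adjusted p of 0.125 to 0.208 and cannot go below 0.0417 before adjustment. With 1 first-set pig left out the 3 ratios that passed had adjusted p of 0.125 or more.

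**Figure D3:**
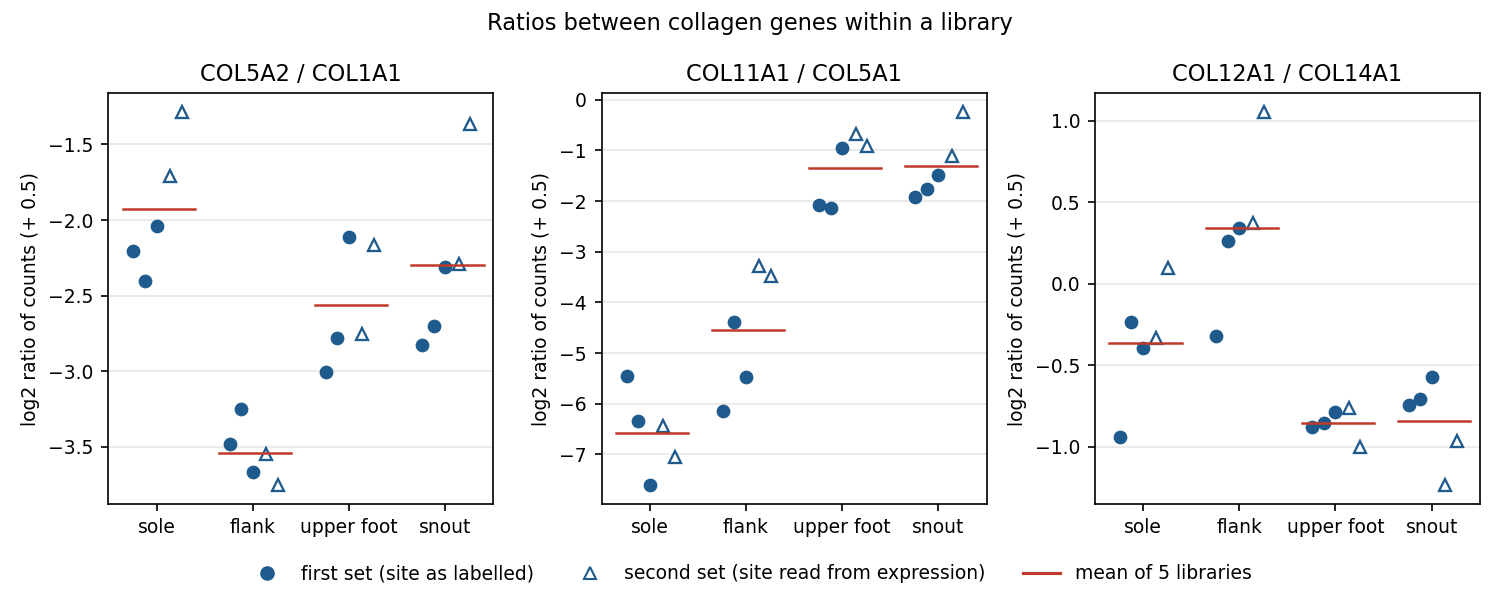
Log2 ratio of counts (0.5 added) between 2 collagen genes in each library, by site; symbols as in the plot of the collagen I and III chains, with red lines for the mean of 5 libraries. COL5A2 over COL1A1 is lowest in all 5 flank libraries, and COL11A1 over COL5A1 is higher in all upper foot and snout libraries than in all sole and flank libraries.

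COL11A1 encodes a chain of collagen XI, a fibril-nucleating relative of collagen V best known from cartilage. Its level in the first set was 9.27, 2.42 and 1.15 CPM in the sole, 11, 22.3 and 19.1 CPM in the flank, 120.4, 62.1 and 88.4 CPM in the upper foot and 104, 113 and 77 CPM in the snout. The sole was lowest and the flank next in 3 of 3 pigs, and upper foot and snout overlapped each other but neither of the other sites. Second-set values were 1.05 and 0.498 CPM in the sole, 82.2 and 34.6 CPM in the flank, 169 and 94.1 CPM in the upper foot and 134 and 103 CPM in the snout. The flank again stood between the sole and the other 2 sites. The log2 fold change of sole minus flank in the first set was -2.03 ± 0.62 (adjusted p = 0.0285), moved to -3.55 without the 4-month pig, and was no longer called without the 7-month or the 8-month pig or in a fit of the 2 sites. First-set values were -4.38 ± 0.68 (adjusted p = 0.00123) for sole minus upper foot and -4.52 ± 0.68 (adjusted p = 0.00249) for sole minus snout. Snout minus flank was 2.49 ± 0.62 (adjusted p = 0.0251). That call was lost without the 7-month or the 8-month pig, and the call of sole minus snout without the 7-month pig. Upper foot minus flank was 2.35 ± 0.61 (adjusted p = 0.208) and did not pass.

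COL11A2, another collagen XI chain, was low everywhere but in some snout libraries: in the first set it had 0.352, 0.86 and 0.249 CPM in the sole, 0.554, 1.1 and 0.661 CPM in the flank, 0.881, 1.25 and 0.886 CPM in the upper foot and 0.814, 7.71 and 3.21 CPM in the snout. The snout values of the 7- and 8-month pigs exceeded all other first-set libraries, and that of the 4-month pig lay within the range of the other sites. In the 5- and 6-month pigs it had 0.558 and 0.271 CPM in the sole, 0.934 and 1.01 CPM in the flank, 0.716 and 1.34 CPM in the upper foot and 7.27 and 3.34 CPM in the snout. Sole minus snout was -3.02 ± 0.74 (adjusted p = 0.0245) in the first set and -3.27 ± 0.50 (adjusted p = 8.4e-05) over all libraries. The first-set call was lost without the 7-month or the 8-month pig and in a fit of the 2 sites. The 3 highest COL11A2 libraries are the 3 snout libraries with skeletal muscle transcripts described below, and without them sole minus snout over all libraries was -2.15 and still called, while snout minus flank and snout minus upper foot, at 1.25 and 1.02, were no longer called. COL2A1, the cartilage collagen, ranged from 1.99 to 6.43 CPM in the 5 snout libraries and reached 3.22 and 4.64 CPM in the sole of the 4- and 7-month pigs, against 0.192 CPM or less in the 3 other sole libraries. Its sole minus flank value in the first set was 4.66 ± 1.11 (adjusted p = 0.00901). COMP, a cartilage and tendon protein on the marker list, had medians of 59.2 CPM in the sole and 60.0 CPM in the snout. It ran from 3.26 to 263 CPM in the sole libraries and was at most at 4.32 CPM in flank and upper foot. Every other gene of that list, SOX9 and ACAN among them, had its lowest site median in the sole. The part of such tissue in the COL2A1 values was not tested.

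Among the 5 collagen VI genes, COL6A5 and COL6A6 were high in flank and upper foot and low in sole and snout. COL6A5 and COL6A6 encode alternative long chains that stand in for the alpha 3 chain. COL6A6 had 0.804, 0.886 and 3.14 CPM in the sole, 77.8, 31.5 and 95 CPM in the flank, 119.6, 73.8 and 44.2 CPM in the upper foot and 5.38, 12.1 and 1.8 CPM in the snout in the first set. Neither sole nor snout overlapped flank or upper foot. Among second-set libraries it had 0.174 and 0 CPM in the sole, 190.1 and 32.3 CPM in the flank, 238 and 103 CPM in the upper foot and 10.8 and 6.55 CPM in the snout. The separation was the same. In the first set sole minus flank was -5.37 ± 0.86 (adjusted p = 0.00109), sole minus upper foot -5.56 ± 0.86 (adjusted p = 0.00126), snout minus flank -3.40 ± 0.77 (adjusted p = 0.0169) and snout minus upper foot -3.59 ± 0.78 (adjusted p = 0.0193). Both snout calls were lost without the 4-month pig, at -3.17 and -3.05, and in fits of the 2 sites, at -3.41 and -3.63. The call against the flank was also lost without the 8-month pig (-2.65), and the call against the upper foot without the 7-month pig (-4.49). Upper foot minus flank was 0.20 ± 0.70 (adjusted p = 0.99). Hair follicle genes (KRT71, KRT85, KRT35 and LGR5, summed) ran from 278 to 8570.5 CPM in flank and upper foot, from 145 to 569 CPM in the snout and from 0.0754 to 21.1 CPM in the sole. Their part in the COL6A5 and COL6A6 values was not tested.

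COL6A5 was likewise high in flank and upper foot, but its sole exceeded its snout in the 7- and 8-month pigs. It had 0, 5.6 and 13.8 CPM in the sole, 53.3, 36 and 25.4 CPM in the flank, 51.2, 52.4 and 40.2 CPM in the upper foot and 5.33, 2.81 and 2.57 CPM in the snout in the first set, so that the sole of the 4-month pig held no count in a library of 53369549 counts while the soles of the other 2 pigs did. The flank and upper foot libraries all stood above the sole and snout libraries. Second-set libraries held 0 and 0 CPM in the sole, 61.5 and 43.1 CPM in the flank, 93.7 and 127 CPM in the upper foot and 10.2 and 2.64 CPM in the snout. Both sole libraries held no count there, which makes the flank mean of 52.3 CPM at least 1540-fold higher than the sole, taking 3 counts over the 2 libraries as the limit that a count of 0 allows for counting error. The any-site test gave an adjusted p of 0.0421 in the first set, which was lost with the pig as block (adjusted p = 0.0641) and without the filter on low counts. No first-set pair passed for COL6A5, with snout minus flank at -3.42 ± 1.07 (adjusted p = 0.0604) and sole minus flank at -2.55 ± 1.03 (adjusted p = 0.0809). Over all libraries snout minus upper foot was -3.91 ± 1.02 (adjusted p = 0.0102) and sole minus upper foot -4.07 ± 1.07 (adjusted p = 0.00444). The snout call was lost without the 3 snout libraries with muscle transcripts, at -4.29, and without the 7-month pig, at -3.88.

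The common chains of collagen VI were highest in the flank on average, though edgeR called none between flank and upper foot without the pig as block. COL6A3 had 1523.4, 727 and 990.0 CPM in the sole, 4214, 2600.4 and 4335 CPM in the flank, 4369.5, 1834 and 1543 CPM in the upper foot and 2144, 1465 and 1245 CPM in the snout in the first set. The sole lay below the flank without overlap and overlapped the snout, and in the 4-month pig the upper foot was above the flank. The second set held 567 and 349 CPM in the sole, 5403 and 2495 CPM in the flank, 3329 and 2119 CPM in the upper foot and 1918 and 962 CPM in the snout. The sole was lowest in both pigs. Sole minus flank was -1.78 ± 0.43 (adjusted p = 0.00939) in the first set and -2.25 ± 0.38 (adjusted p = 8.08e-05) over all libraries. The first-set call was lost without the 7-month or the 8-month pig. COL6A1 gave -1.36 ± 0.40 (adjusted p = 0.0238) in the first set, and COL6A2 did not pass there. For any site in the first set, COL6A1 passed with the pig as block (adjusted p = 0.0196).

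**Figure D4:**
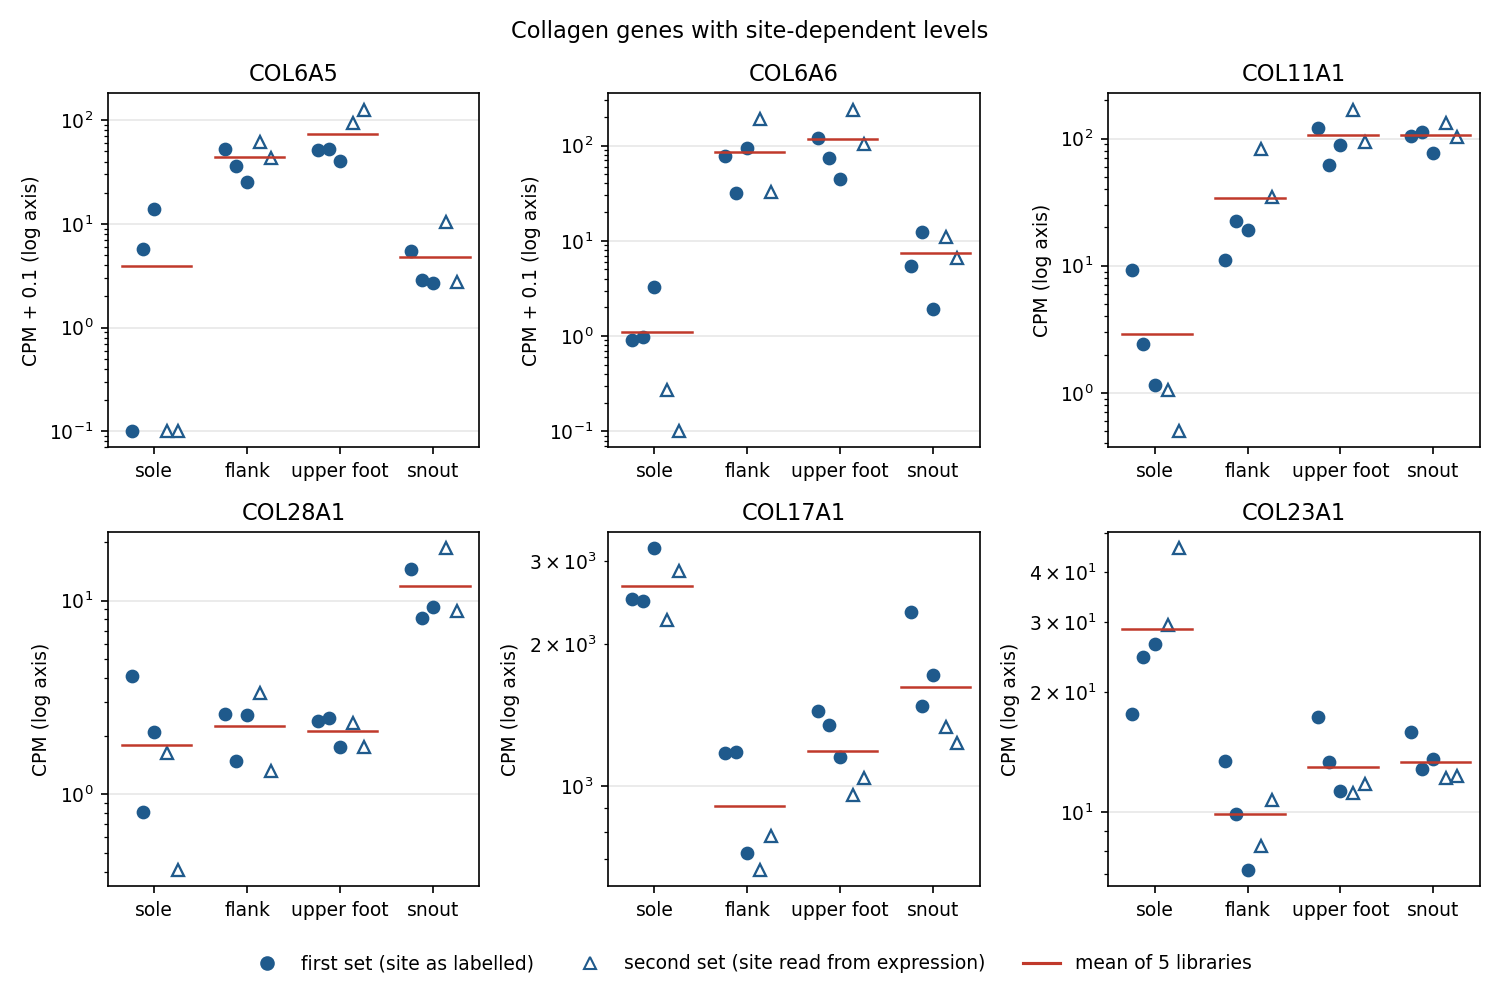
Level of 6 collagen genes in each library by site, in CPM on a log axis (0.1 added for COL6A5 and COL6A6); symbols as in the plot of the collagen I and III chains, with red lines for the mean of 5 libraries. COL6A6 lies between 31.5 and 238 CPM in flank and upper foot and at 12.1 CPM or less in sole and snout, COL28A1 is highest in the 5 snout libraries, and COL17A1 and COL23A1 are highest on average in the sole.

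Of the 4 genes higher in the sole than in the flank of the first set, COL17A1, COL23A1 and COL13A1 encode membrane-spanning collagens. COL17A1, the gene of the hemidesmosomal collagen XVII of basal keratinocytes, had 2491, 2466.5 and 3188 CPM in the sole, 1174, 1181.5 and 721 CPM in the flank, 1444, 1345 and 1152 CPM in the upper foot and 2338, 1477 and 1715.5 CPM in the snout in the first set. Each sole library exceeded all others. Second-set values were 2244.5 and 2860.4 CPM in the sole, 664 and 785 CPM in the flank, 955 and 1037 CPM in the upper foot and 1335 and 1231 CPM in the snout. The sole was again above the other sites. Sole minus flank was 1.41 ± 0.23 (adjusted p = 0.00118) in the first set and 1.58 ± 0.16 (adjusted p = 3.78e-07) over all libraries, and sole minus upper foot was 1.07 ± 0.23 (adjusted p = 0.00693) in the first set. The upper foot call was lost without the 7-month or the 8-month pig. Sole minus snout was 0.56 ± 0.23 (adjusted p = 0.14) in the first set, and snout minus flank 0.84 ± 0.23 (adjusted p = 0.0344), a call lost without any 1 of the 3 pigs (0.68 to 1.09) and in a fit of the 2 sites. Of the keratinocyte genes given above, KRT1 and KRT10 were highest in the same sole libraries and KRT15 was lowest there. Their part in the COL17A1 difference was not tested.

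COL23A1 encodes another membrane-spanning collagen. It had 17.6, 24.5 and 26.4 CPM in the sole, 13.4, 9.93 and 7.16 CPM in the flank, 17.3, 13.4 and 11.3 CPM in the upper foot and 15.9, 12.8 and 13.6 CPM in the snout in the first set and 29.4 and 45.8 CPM in the sole, 8.25 and 10.7 CPM in the flank, 11.2 and 11.7 CPM in the upper foot and 12.2 and 12.3 CPM in the snout in the second. Each of the 5 sole libraries was above all 15 others. Sole minus flank was 1.17 ± 0.25 (adjusted p = 0.00512) in the first set and 1.54 ± 0.22 (adjusted p = 1.58e-05) over all libraries. The first-set call was lost without the 7-month or the 8-month pig. COL13A1, a membrane collagen found at cell adhesion sites and at the neuromuscular junction, was higher in sole and snout than in the flank. It had 9.6, 6.83 and 6.25 CPM in the sole, 3.88, 1.88 and 1.92 CPM in the flank, 8.13, 4.72 and 6.1 CPM in the upper foot and 11.5, 7.92 and 6.86 CPM in the snout in the first set. Sole, snout and upper foot overlapped each other and stood above the flank. Sole minus upper foot was 0.28 ± 0.34 (adjusted p = 0.594) and snout minus upper foot 0.49 ± 0.34 (adjusted p = 0.45) there. The second set held 9.8 and 7.19 CPM in the sole, 3.23 and 2.03 CPM in the flank, 4.41 and 3.78 CPM in the upper foot and 13.3 and 7.36 CPM in the snout. Its sole and snout libraries were above its other libraries. Sole minus flank was 1.57 ± 0.35 (adjusted p = 0.0061) and snout minus flank 1.78 ± 0.35 (adjusted p = 0.00811) in the first set. Both calls were lost without the 7-month or the 8-month pig. COL25A1, also membrane-spanning and known from motor innervation of muscle, was lower in the sole than in each other site, with -2.25 ± 0.43 (adjusted p = 0.0036) for sole minus upper foot in the first set.

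**Figure D5:**
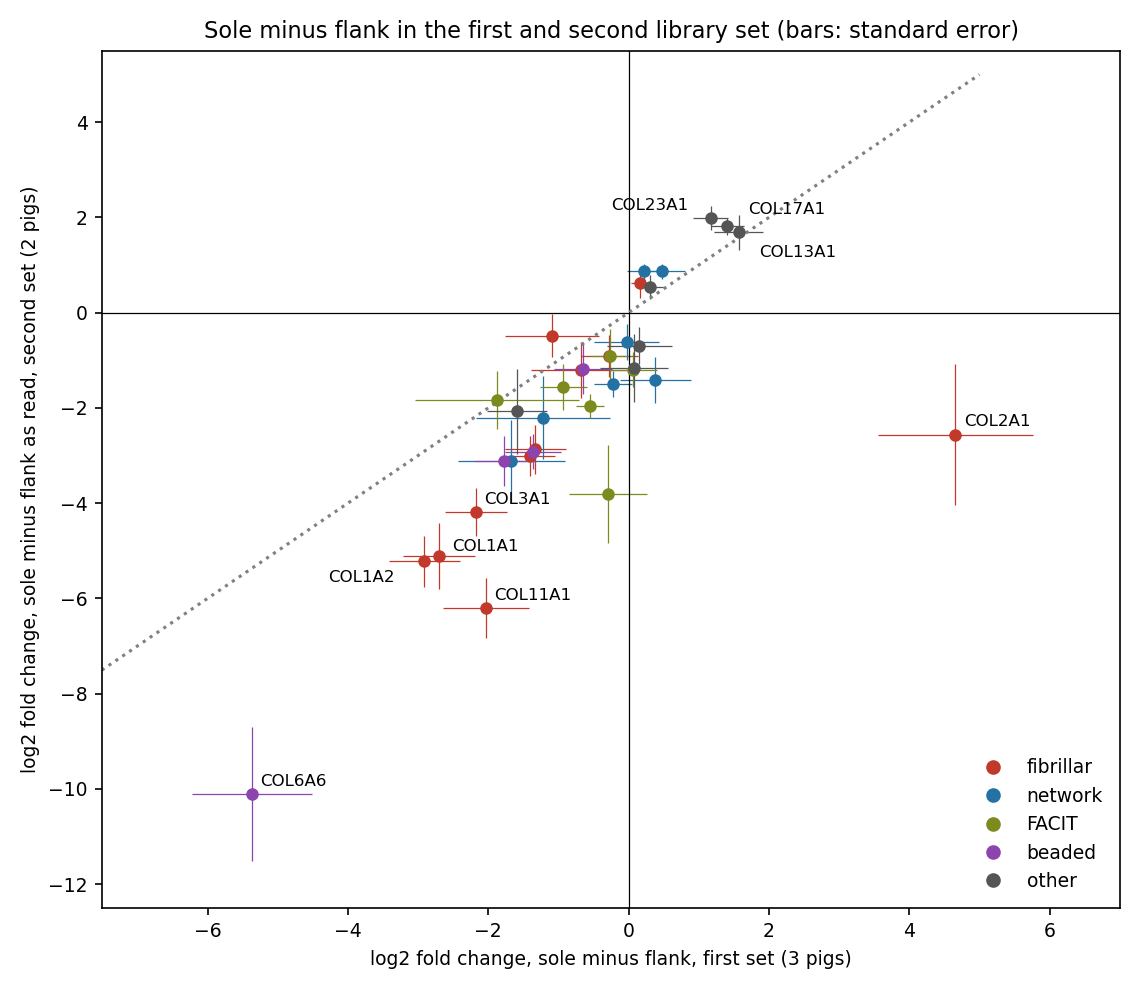
Log2 fold change of sole minus flank for each tested collagen gene in the first set (horizontal axis, 3 pigs, sites as labelled) against the second set (vertical axis, 2 pigs, sites read from expression), with standard errors as bars, class as colour and equality as the dotted line. COL6A5 and COL9A1, which had no count in the second-set sole, are left out, since a fitted fold change against 0 is no measurement. COL1A1, COL1A2, COL3A1 and COL6A6 are low in both sets, COL17A1, COL23A1 and COL13A1 high in both, and COL2A1 is at 4.66 in the first set and below 0 in the second.

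Against the upper foot, 5 of 37 collagen genes were lower in the sole in the first set (10.1% of all genes) and 3 higher (14% of all genes). The 8 calls became 18 with the pig as block and 14 with DESeq2, and were 5 without the 8-month and 4 without the 7-month pig. Over all libraries 17 were lower (24.2% of all genes) and 5 higher (24.7%). Against the snout, 8 were lower in the sole in the first set (5.85% of all genes) and 2 higher (5.71%), and the calls numbered 3 in all without the 8-month pig and 0 without the 7-month pig. Over all libraries 16 were lower than in the snout (20.7% of all genes) and 5 higher (19%). The median log2 fold change of collagen genes over all libraries was -0.87 against the upper foot and -0.85 against the snout, beside -0.03 for all genes in both comparisons.

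Of the 5 collagen IV genes tested, COL4A5 and COL4A6 were higher in the sole than in the snout, and COL4A3 and COL4A4 were lower over all libraries. COL4A6, which encodes the alpha 6 chain found with alpha 5 under the epidermis, had 64.2, 52.2 and 66.3 CPM in the sole, 56.5, 46.1 and 55.5 CPM in the flank, 56.2, 42 and 34 CPM in the upper foot and 35.1, 19.6 and 24.2 CPM in the snout in the first set. Sole and snout did not overlap. In the 5- and 6-month pigs it had 46.2 and 57.2 CPM in the sole, 30.2 and 26.2 CPM in the flank, 30.8 and 30.9 CPM in the upper foot and 17.9 and 16.3 CPM in the snout. Sole minus snout was 1.22 ± 0.23 (adjusted p = 0.00801) in the first set and 1.37 ± 0.17 (adjusted p = 9.79e-06) over all libraries. Snout minus flank was -1.004 ± 0.23 (adjusted p = 0.018) in the first set. The first-set calls of both pairs were lost without the 7-month or the 8-month pig. COL4A5, the partner chain, gave 1.22 ± 0.33 (adjusted p = 0.0361) for sole minus snout, and its any-site test passed in the first set with the pig as block (adjusted p = 0.00384). COL4A3 and COL4A4, which encode chains that join alpha 5 in specialised basement membranes, gave -3.14 ± 0.76 (adjusted p = 0.00327) and -2.73 ± 0.56 (adjusted p = 0.000907) for sole minus snout over all libraries. Both were low, at most at 2.51 and 1.05 CPM. In the first set neither passed (adjusted p = 0.2003 and 0.0615), and COL4A4 did with the pig as block, at -2.66 (adjusted p = 0.0181). COL4A2, a chain of the collagen IV form present in all basement membranes, was called in neither set without the block and in the second set with it (adjusted p = 0.0434), at 118 to 293 CPM in the sole and 58.6 to 199 CPM in the snout.

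COL8A2 encodes a network-forming chain known from the basement membrane under corneal endothelium. It had 8.47, 12.1 and 7.54 CPM in the sole, 7, 14.4 and 11.3 CPM in the flank, 19.9, 23.1 and 20.9 CPM in the upper foot and 19.2, 29.2 and 21.5 CPM in the snout in the first set and 4.64 and 6.78 CPM in the sole, 14.2 and 17.9 CPM in the flank, 22.8 and 20.6 CPM in the upper foot and 26.4 and 17.9 CPM in the snout in the second. The sole lay below upper foot and snout without overlap in both sets. Sole minus upper foot was -1.16 ± 0.27 (adjusted p = 0.0102) and sole minus snout -1.31 ± 0.27 (adjusted p = 0.0111) in the first set. The snout call was lost without the 7-month or the 8-month pig, and the upper foot call without the 8-month pig. COL9A1 and COL9A3, FACIT chains that coat collagen II fibrils of cartilage, were low throughout, at most at 1.43 CPM. Their sole minus snout values in the first set were -3.43 ± 0.52 (adjusted p = 0.00238) and -2.38 ± 0.54 (adjusted p = 0.0176).

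The snout differed from the flank in 13 of 37 collagen genes in the first set, 8 higher (7.77% of all genes) and 5 lower (5.46% of all genes), and the calls numbered 7, 1 and 2 without the 4-, 8- and 7-month pig. Over all libraries 9 were higher (15.7% of all genes) and 13 lower (13.2%). Against the upper foot the first set gave 2 higher (5% of all genes) and 1 lower (2.92%), 6 in all with the pig as block and 1 without the 7-month or the 8-month pig, and all libraries gave 8 higher (13.4%) and 3 lower (8.77%). Skeletal muscle genes stood out in 3 of the 5 snout libraries: 7 of the 10 listed had a row and summed to 9085 CPM in the 7-month pig and to 3911 and 6450 CPM in the 5- and 6-month pigs (labelled volar), against 2.71 to 13.7 CPM in the other 17 libraries. Without those 3 libraries, an alternative chosen after seeing the data, the calls over all libraries were 6 against the flank, 2 against the upper foot and 9 against the sole. That fit keeps the snout of the 4- and 8-month pigs only, both of the first set. The part of the smaller number of libraries in these counts was not tested. Nerve and Schwann cell genes (4 of 5 listed) were also highest in the snout, at 47.7 to 110 CPM against 22.9 CPM or less elsewhere. The part of either marker list in the snout values was not tested.

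COL28A1, a collagen of peripheral nerve known from non-myelinating Schwann cells, was high in every snout library. It had 4.07, 0.808 and 2.11 CPM in the sole, 2.61, 1.49 and 2.58 CPM in the flank, 2.38, 2.47 and 1.75 CPM in the upper foot and 14.5, 8.15 and 9.31 CPM in the snout in the first set. The snout stood above all other libraries. In the second set it had 1.64 and 0.407 CPM in the sole, 3.33 and 1.32 CPM in the flank, 2.32 and 1.77 CPM in the upper foot and 18.6 and 8.84 CPM in the snout, with the same separation. Snout minus flank was 2.26 ± 0.50 (adjusted p = 0.0143) and snout minus upper foot 2.29 ± 0.50 (adjusted p = 0.0186) in the first set, and both calls were lost without the 4-month or the 8-month pig, at 2.07 to 2.46. Without the muscle-bearing libraries the values over all libraries were 2.22 and 2.34, and both remained called. COL22A1, a FACIT collagen of tissue junctions such as that of muscle and tendon, had 0.101, 0.104 and 0.153 CPM in the sole, 0.993, 0.0301 and 0.354 CPM in the flank, 0.278, 0.48 and 0.206 CPM in the upper foot and 0.702, 6.21 and 0.6 CPM in the snout in the first set and 0.0698 and 0.226 CPM in the sole, 0.599 and 0.416 CPM in the flank, 0.286 and 0.224 CPM in the upper foot and 3.88 and 2.67 CPM in the snout in the second. Its 3 highest libraries, at 6.21, 3.88 and 2.67 CPM, are the 3 snout libraries with muscle genes, and the other 2 snout libraries lie within the range of the flank. Sole minus snout was -4.35 ± 1.21 (adjusted p = 0.0415) in the first set, lost with the pig as block (adjusted p = 0.0846), as was its first-set any-site call (adjusted p = 0.037 without the block and 0.1197 with it). The call of sole minus snout was also lost without any 1 of the 3 pigs and in a fit of the 2 sites. Over all libraries the any-site call was lost without the muscle-bearing libraries (adjusted p = 0.0565). COL4A3 shared that distribution, with 1.52, 1.85 and 2.51 CPM in those 3 libraries and 0.16 and 0.326 CPM in the other snouts.

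Flank and upper foot, the haired sites, showed no collagen gene past the threshold. In the first set 0 of 37 were higher (0.0784% of all genes) and 0 lower (0.0523%) by edgeR. Its unadjusted p was under 0.05 for 14 of the 37, beside 1380 of all 15302 genes. DESeq2 called 5, and edgeR with the pig as block called 1 (COL13A1). Over all libraries 0 were higher (0.57%) and 0 lower (0.851%). The unadjusted p was under 0.05 for 16 of the 37, beside 2114 of all 15275 genes. DESeq2 called 3, and edgeR with the pig as block called 6. COL1A1 was lower in the upper foot than in the flank in all 5 pigs, at -1.73 ± 0.48 (adjusted p = 0.0844) over all libraries and passing with the pig as block (adjusted p = 0.0269). COL21A1, a FACIT collagen of vessel walls, came nearest to a call without the block. It had 27.5, 14.5 and 12.3 CPM in the sole, 21.6, 24 and 19.5 CPM in the flank, 12.5, 7.88 and 7.91 CPM in the upper foot and 24.4, 18.7 and 20.7 CPM in the snout in the first set and 18.4 and 11 CPM in the sole, 42.1 and 12.9 CPM in the flank, 14.2 and 10.6 CPM in the upper foot and 36.8 and 21.9 CPM in the snout in the second. The upper foot was lowest in each first-set pig, and only its 4-month value reached into the range of another site, the sole. Upper foot minus flank was -1.19 ± 0.30 (adjusted p = 0.0512) over all libraries and passed with the pig as block (adjusted p = 0.008). Sole minus upper foot was 0.97 ± 0.29 (adjusted p = 0.0353) and snout minus upper foot 1.19 ± 0.29 (adjusted p = 0.0319) in the first set. The sole call was lost with upper-quartile scaling, at 0.86, and in a fit of the 2 sites, at 0.93, and both calls were lost without the 7-month and without the 8-month pig. Over all libraries sole minus upper foot was 0.70 ± 0.30 (adjusted p = 0.0572) and passed with the pig as block (adjusted p = 0.0122), and in the second set it was 0.26 ± 0.56.

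The remaining members showed smaller or less certain differences. COL18A1, whose product carries endostatin and lies in vessel and epidermal basement membranes, was higher in the sole than in the upper foot of the first set, at 0.82 ± 0.20 (adjusted p = 0.0139). COL12A1 and COL14A1 did not pass in the first set without the pig as block and passed with it (adjusted p = 0.0467 and 0.0228 for any site), as did the FACIT gene COL16A1 (adjusted p = 0.0101), the collagen V gene COL5A3 (adjusted p = 0.0302), COL6A2 (adjusted p = 0.0309), COL24A1 (adjusted p = 0.0439) and COL4A4 (adjusted p = 0.0265). COL24A1, a fibrillar collagen known from bone, ran from 1.15 to 2.39 CPM in the 5 snout libraries and from 0.247 to 2.12 CPM in the others. COL15A1, related to COL18A1, had sites that overlapped throughout, from 61.7 to 314 CPM.

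Genes around collagen were counted from lists of the pathway. Of 17 tested genes that fold and modify chains in the cell, 8 differed between sites in the first set, beside 30.4% of all genes. In the separate test of sole against flank 8 were lower (16% of all genes) and 2 higher (16.9% of all genes), and these all-gene shares apply to the 3 lists that follow as well. CREB3L1, a transcription factor of collagen secretion, averaged 4.49 ± 0.84 CPM (SD, n = 3) in the sole and 29.0 ± 11.8 CPM in the flank, a log2 fold change of -2.69 ± 0.39 (adjusted p = 0.000609). FKBP10, a collagen chaperone, gave -1.995 ± 0.32 (adjusted p = 0.00098) and P4HA2, a subunit of prolyl hydroxylase, -0.67 ± 0.16 (adjusted p = 0.00786). P4HB, the disulfide isomerase that is also the other subunit, went the opposite way at 0.46 ± 0.12 (adjusted p = 0.0156). Of 13 genes that process or crosslink secreted collagen, 7 differed between sites, and between sole and flank 5 were lower in the sole and 0 higher. LOXL4, a crosslinking amine oxidase, gave -2.13 ± 0.24 (adjusted p = 0.000132), and the propeptide-cleaving proteases BMP1 and ADAMTS2 gave -1.38 ± 0.28 (adjusted p = 0.00388) and -1.54 ± 0.39 (adjusted p = 0.0117). ADAMTS3, a related protease, was highest in the snout, at 0.99 ± 0.21 for snout minus flank (adjusted p = 0.012).

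Of 8 collagen receptor genes tested, 2 differed between sites in the first set, beside 30.4% of all genes. Between sole and flank 2 were higher in the sole and 0 lower: DDR1, the epithelial discoidin-domain receptor, by 0.63 ± 0.16 (adjusted p = 0.0127) and ITGA2, the integrin alpha 2 chain, by 0.83 ± 0.24 (adjusted p = 0.0208). MRC2, an endocytic collagen receptor, and ITGA11, a fibroblast integrin chain, were at -0.64 ± 0.25 (adjusted p = 0.0693) and 0.54 ± 0.25 (adjusted p = 0.119). Over all libraries 1 receptor gene was higher in the sole than in the flank (DDR1) and 2 were lower (MRC2 and DDR2), and ITGA2 was at 0.45 (adjusted p = 0.0532). Of 9 breakdown genes, 5 differed between sites. The separate test of sole against flank called 6, with 4 lower in the sole and 2 higher. MMP13, a collagenase, averaged 9.03 ± 2.32 CPM (SD, n = 3) in the sole and 0.173 ± 0.0909 CPM in the flank, a log2 fold change of 5.73 ± 0.48 (adjusted p = 2.78e-05). MMP14, the membrane-bound collagenase, gave -1.32 ± 0.18 (adjusted p = 0.000454), the gelatinase gene MMP2 -1.64 ± 0.30 (adjusted p = 0.0023) and the inhibitor gene TIMP1 -0.93 ± 0.17 (adjusted p = 0.00254).

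Under the deposited labels of all 20 libraries, edgeR called 0 of 37 collagen genes (0% of all genes) between sites. Its unadjusted p was under 0.05 for 8 of them, beside 2576 of all 15275 genes. DESeq2 called 2, COL2A1 and COL8A2. COL1A1 then averaged 3595 ± 1845 CPM (SD, n = 5) in volar, 12516.5 ± 11369.7 CPM in flank, 16068 ± 14491 CPM in dorsal and 6290.5 ± 2861 CPM in snout libraries. The flank label held libraries from 727 to 25364 CPM and the dorsal label from 3105 to 39451 CPM, so the 4 label groups overlapped. COL6A5, read by labels, ranged from 0 to 53.3 CPM in the flank libraries.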

How the data were processed

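Skin RNA of 20 biopsies was sequenced from TruSeq stranded mRNA libraries, per the labels' protocols. The authors deposited estimated counts for Ensembl genes, computed with Salmon per the submitters' processing notes. Which Salmon version, genome build and annotation they used is not given in the sources used here, and no coordinates are printed. Not whole were 42.2% of values (tolerance 1e-09), and all were rounded before testing. Symbols came from the supplied name tables for 14821 of 19280 identifiers.

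Replicates are separate pigs per the labels. Libraries were scaled by TMM and tested with edgeR 4.0.16 in R 4.3.3 (robust quasi-likelihood F test, filterByExpr with a minimum count of 10 and total of 15, Benjamini-Hochberg over all genes, threshold 0.05), with a set term where all libraries entered. Read sites of the second set follow correlation with first-set site means. The tests were also run on simulated counts with known changes in the sole only. Those counts were drawn without pig effects, so that run does not cover the pairing by pig. Alternatives were DESeq2 1.42.0, 3 other scalings, other count filters, a fit of 2 sites, the pig as block, each pig left out, and libraries with muscle genes left out.

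The 4 sites of a pig pair the libraries. After subtracting site means, first-set libraries of the same pig correlated with a median r of 0.215 (-0.00687 to 0.434), and second-set libraries with 0.311 (0.115 to 0.44). Ratios between genes used log2 of counts with 0.5 added and an exact permutation of site names within pigs. Of 8 planned ratios 6 were run, since COL4A1 and COL7A1 were not analysed here.

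Values in every library are given for COL1A1, COL1A2, COL3A1 and COL6A5, and in each class for up to 4 genes with the smallest any-site p over all libraries that also pass in the first set and reach 1 CPM in a site. Of each pathway list the 4 genes with the smallest first-set p are named. The members, lists and rules were chosen with earlier results of these data known. Other genes were named after their values were seen. Floors of 3 counts cover counting error only.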

Additional observations from a re-analysis of the deposited data

Results flagged for a closer look

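In 64 groups of 5 libraries (16 collagen genes in 4 sites, second-set sites as read), 2 held a library far from the rest by Dixon's criterion, which chance alone marks in about 1 in 20 groups. COL6A6 stood at 3.14 CPM in the sole of the 8-month pig, against 0, 0.174, 0.804 and 0.886 CPM in the other soles. COL11A1 stood at 9.27 CPM in the sole of the 4-month pig, against 0.498, 1.05, 1.15 and 2.42 CPM. Both values remain below every flank library of the same gene.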

How the results depend on the processing

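No named result changed direction under any alternative run. All-gene shares are not given for the alternatives, so the counts below cannot be set against all genes. In the first set, members called between sole and upper foot numbered 14 with DESeq2 and 18 with the pig as block. Between snout and upper foot they numbered 8 with DESeq2, 5 in a fit of those 2 sites and 6 with the block, and between upper foot and flank 5 with DESeq2 and 1 with the block. Over all libraries, upper foot against flank gave 3 with DESeq2, 1 with a count minimum of 50, 1 with median-of-ratios scaling, 1 with upper-quartile scaling and 6 with the replicate block. DESeq2 called 2 members under the deposited labels and 5 for the interaction. Without the libraries with muscle genes, 9 members were called for sole against snout, 6 for snout against flank and 2 for snout against upper foot. With 1 pig left out, first-set counts ran from 3 to 18 for any site, 4 to 15 for sole against flank, 4 to 10 against upper foot, 0 to 8 against snout, 1 to 7 for snout against flank and 1 to 2 for snout against upper foot. Over all libraries they ran from 13 to 25 for snout against flank, 7 to 11 for snout against upper foot and 0 to 2 for upper foot against flank. The adjusted exact p of the ratios then ran from 0.125 to 0.3125 for COL5A2 over COL1A1, 0.125 to 0.35 for COL11A1 over COL5A1 and 0.125 to 0.35 for COL12A1 over COL14A1. Fewer pigs leave a coarser test, and the cause of the other shifts was not tested. Leaving a pig out of the second set was not run, since no residual degrees of freedom remain. Among members, the blocked fit gained 10 and lost 2 any-site calls in the first set, gained 7 in the second and 1 over all libraries, and for pairs of sites gained 25 and lost 1 in the first set and gained 27 and lost 1 over all libraries. With 3 pigs in the first set, differences of low genes such as COL22A1 and COL4A3 rest on few counts.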
